A study of Mus musculus with 10 samples.

Results

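Enteroendocrine cells are the hormone-secreting cells of the gut epithelium, and 10 genes that mark them are described here in jejunum of mice labelled Klf9 knockout or wild type. The genes are Cck, Gip, Sct, Ghrl, Gcg, Nts, Pyy and Sst, which encode peptide hormones, and Chga and Pcsk1, which encode a granule protein and a prohormone-cutting enzyme. They were chosen by name and not by their values, and each was read by 1 probe set annotated to that gene alone, so that 10 of the 22690 probe sets on the array are described. A probe set is a group of short oligonucleotides on an Affymetrix mouse 430A array that reads 1 transcript. Signals are in the arbitrary units of MAS 5.0, on arrays scaled to a common trimmed mean. Per the labels and the design text, 5 arrays carry jejunal RNA of Klf9-/- male mice and 5 that of wild type male mice, all at postnatal day 30. By the design text each array holds 1 animal, whereas the labelling protocol mentions pools of RNA. The strain, and the part of Klf9 that the mutation removes, are not given in the sources used here.

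Enteroendocrine cells are scattered singly among absorptive cells and descend from crypt progenitors through the transcription factor Neurog3. They sense nutrients and store peptides in granules, where prohormone convertases cut hormone precursors into active peptides. Gip, Cck and Sct are best known from the upper small intestine, and Pyy, Nts and the glucagon-like peptides from Gcg become more abundant toward the ileum and colon. Klf9 belongs to the Kruppel-like and Sp family of zinc finger factors, whose members bind GC-rich sites.

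Klf9 was unlike the rest of its labelled group on both arrays labelled replicate 1. Of its 7 probe sets only the brightest is described. It read 944, 485, 339.6, 526 and 451 on the arrays labelled knockout replicates 1 to 5, against 551, 1319.8, 1038, 1249 and 964 on those labelled wild type. Knockout replicate 1 lay within the wild type range, and wild type replicate 1, the lowest of its group, lay above knockout replicates 2 to 5. The log2 difference was -0.86 ± 0.25 (limma SE, adjusted p = 0.466; exact two-sided permutation p = 0.0159). A characteristic of knockout replicate 1 also mentions both genotypes, and the array was grouped by its title. Every direction below therefore rests on labels that are in doubt on 2 arrays. Differences without both arrays are given with each of the 10 enteroendocrine genes that differed by over 0.1 with or without them. For Klf9 and for the genes of the further lists no such differences are given. The tissue read as small intestinal mucosa with muscle: all 10 epithelial and all 9 enterocyte markers on the array lay above the filter of 123.5 units, and so did all 10 smooth muscle markers. Stomach and islet markers were mostly below it, at 9 and 5 genes on the array with 2 and 1 above. In exocrine pancreas 6 of 11 were above. Clps, the pancreatic colipase gene, led them at 1397 to 2226 on the arrays labelled knockout and 1299.8 to 2169.5 on those labelled wild type. The others above the filter were Cela1, Cela3b, Prss2, Ctrb1 and Cel, at mean signals of 439, 430, 289, 254 and 178. Cpb1, Cela2a, Ctrl, Pnliprp1 and Cpa1 were below it, and Cpa1, the dimmest, was between 2.50 and 7.70 units on all arrays. The 11 summed to 3008 to 4343 on the arrays labelled knockout and 2925 to 3843 on those labelled wild type, and their part in the hormone values was not tested. Bulk RNA cannot tell fewer enteroendocrine cells from less hormone messenger RNA per cell, and the number of arrays limits the precision of every value.

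The start regions of these genes are shown because Klf9 belongs to a family that binds GC boxes. All 10 genes matched a RefSeq start (build GRCm38.p6), Ghrl with 4 and Pyy with 2 starts, and the 250 bases before each start were searched on both strands. The GC box GGGCGG was found in 2 of the 10 genes, Sct and Chga, and in 32.7% of 32851 such windows of the genome. The core of the cyclic AMP response element, TGACG, was found in 5 (Cck, Chga, Nts, Pcsk1 and Sst), against 17.8% of the windows. The E box CANNTG, the class of site bound by Neurod1, was found in 9, all but Pcsk1, against 66.2% of the windows. A gene was counted if any of its windows matched, whereas the shares are over single windows, and not every Ghrl window held an E box. Windows of 4 genes follow, 5′ to 3′, with GC boxes and TGACG cores of either strand in capitals. Sct and Chga hold GC boxes, and Nts had the largest difference between the labelled groups. Sst holds the full palindromic element in which the core matches on both strands with an overlap, as does Pcsk1, whose window is not shown. The windows of Sct, Chga, Sst and Nts lie, in that order, at chr7:141279134-141279383 (minus strand), chr12:102554691-102554940 (plus strand), chr16:23890845-23891094 (minus strand) and chr10:102490419-102490668 (minus strand).
Sct: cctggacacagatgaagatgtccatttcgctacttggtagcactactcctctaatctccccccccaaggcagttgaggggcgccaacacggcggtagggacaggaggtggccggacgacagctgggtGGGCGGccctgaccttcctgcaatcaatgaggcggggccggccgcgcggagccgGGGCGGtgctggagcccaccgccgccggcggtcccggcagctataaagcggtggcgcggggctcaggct
Chga: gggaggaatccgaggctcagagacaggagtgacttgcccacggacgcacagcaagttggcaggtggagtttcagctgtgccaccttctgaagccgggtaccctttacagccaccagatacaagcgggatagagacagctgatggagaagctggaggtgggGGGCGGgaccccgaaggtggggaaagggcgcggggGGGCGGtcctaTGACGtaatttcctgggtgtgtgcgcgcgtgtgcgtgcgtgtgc
Sst: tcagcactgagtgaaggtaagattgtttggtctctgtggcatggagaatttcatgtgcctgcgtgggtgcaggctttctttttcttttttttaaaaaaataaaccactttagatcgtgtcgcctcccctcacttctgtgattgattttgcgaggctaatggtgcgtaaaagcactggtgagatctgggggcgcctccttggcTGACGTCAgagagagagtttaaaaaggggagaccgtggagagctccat
Nts: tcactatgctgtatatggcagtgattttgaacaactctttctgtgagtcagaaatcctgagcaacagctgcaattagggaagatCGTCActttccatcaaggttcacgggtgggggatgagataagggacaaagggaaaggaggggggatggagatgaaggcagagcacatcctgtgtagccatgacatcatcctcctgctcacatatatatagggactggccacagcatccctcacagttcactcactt
A match describes letters only, and no binding was measured.

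In order of mean signal the probe sets ran Gip (1349), Nts (1222), Sct (909), Chga (821), Pyy (777), Gcg (722), Sst (573), Cck (358), Pcsk1 (178) and Ghrl (137). Brightness also depends on the probes, so this is an order of probe set signals and not of messenger RNA amounts. Gip stood at the 88.7th percentile of the probe sets other than controls, Cck at the 65.7th and Ghrl at the 42.5th, and all 10 passed the filter at the 40th percentile. Ghrelin, made mainly in the stomach, was thus just above the level at which probe sets were tested. Among neighbours in this order, Sst was brighter than Cck, and Cck brighter than Pcsk1, on 10 of 10 arrays, and the other 7 steps held on 5 to 8. Pyy was brighter than Gcg on 5 of 10 arrays, Chga brighter than Pyy on 6, and Gip brighter than Nts on 7, so these neighbours did not differ beyond their spread.

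**Figure D1:**
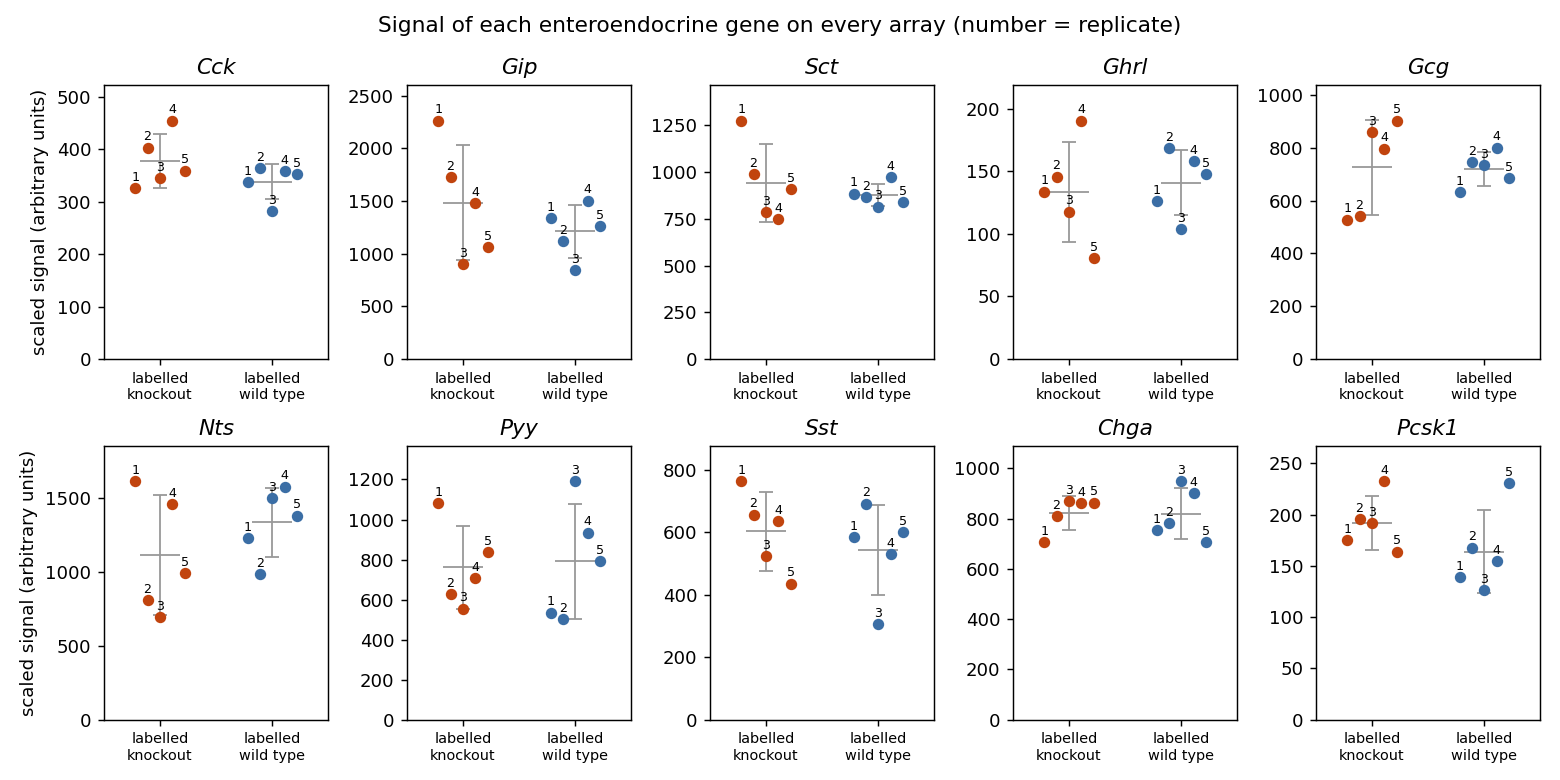
Scaled signal (arbitrary units, axes from 0) of the 10 genes on the arrays labelled knockout (left, orange) and wild type (right, blue). Points are single arrays numbered by replicate, and grey bars are mean ± SD (n = 5). The groups overlap for all 10 genes; Gip reaches 2263 on knockout replicate 1, and Sst is lowest, at 306, on wild type replicate 3.

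None of the 10 genes passed the threshold between the labelled groups, and none had groups without overlap. In limma, with p-values adjusted by Benjamini-Hochberg across the 13579 probe sets tested, 0 members had an adjusted p under 0.05, where the background over all probe sets was also 0.0%. At an unadjusted p under 0.05 there were 0 members, against 7.89% of all probe sets, and 1.55% of all probe sets had groups without overlap. By sign, 6 members had a positive and 4 a negative difference (labelled knockout minus labelled wild type), against 48.6% and 51.4% of all probe sets. The median log2 difference was 0.04 over the members and -0.0053 over all probe sets, and the median size of the difference was 0.11 in both. No alternative setting called a member. Over all probe sets, array weights called 0.0221%, leaving out both arrays labelled replicate 1 called 0.0663%, and leaving out 1 array called 0.0368% without knockout replicate 1, 0.0221% without knockout replicate 5 and 0.00736% without wild type replicate 1.

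By gaps in the hybridization times recorded in the instrument files, the arrays fell into 3 runs. They are called wash runs here, although no wash time was read. Run 1 held replicates 1 and 2 of both labels, run 2 replicates 3 and 4, and run 3 replicate 5. Of the 4 fluidics modules, modules 1 and 2 held arrays labelled knockout and module 3 arrays labelled wild type, and module 4 alone was shared, by knockout replicate 5 and wild type replicates 2 and 4. Module and label can therefore hardly be told apart. With the module as a block 0 members had an adjusted p under 0.05, and 1, Ghrl (-0.71, unadjusted p = 0.0175), had an unadjusted p under 0.05, against 3.47% of all probe sets.

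**Figure D2:**
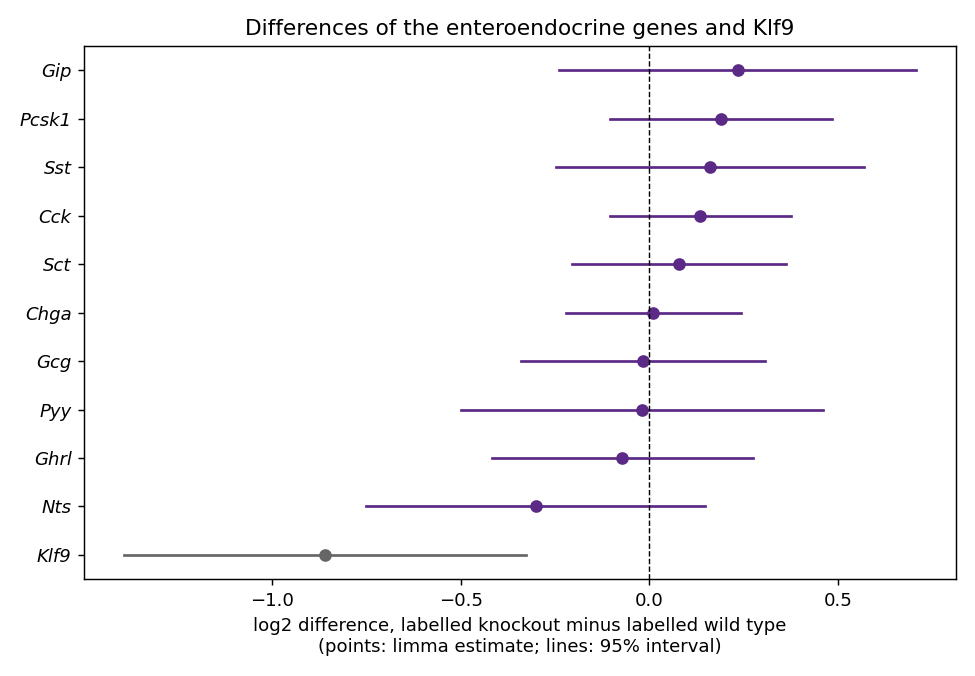
Log2 difference (labelled knockout minus labelled wild type, on the scale of signal plus 50) of the 10 genes and of Klf9. Points are limma estimates and lines 95% intervals; the intervals of all 10 enteroendocrine genes include 0, from Gip at 0.23 to Nts at -0.30, and that of Klf9 does not.

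Among the upper gut hormones, Gip and Cck averaged higher, and neither passed. Gip encodes the incretin of K cells, which raises insulin release after a meal. It read 2263, 1725, 900.4, 1477 and 1061 on the arrays labelled knockout replicates 1 to 5, and 1335, 1119, 841, 1504 and 1262 on those labelled wild type. Knockout replicates 1 and 2 lay above every array labelled wild type, and the other 3 within their range. Its log2 difference was 0.23 ± 0.22 (limma SE, adjusted p = 0.828; exact two-sided permutation p = 0.413), and its 95% interval ran from 0.85-fold to 1.63-fold. That difference depended on knockout replicate 1: it was 0.07 without that array, 0.11 without both arrays labelled replicate 1, and 0.39 without knockout replicate 3.

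Cck encodes cholecystokinin, which empties the gallbladder and stimulates pancreatic enzyme secretion. Its signal was 326, 403, 345, 455 and 359 on the arrays labelled knockout and 337, 363, 282, 358 and 352 on those labelled wild type. Knockout replicates 2 and 4 were above every wild type array, and wild type replicate 3 was below every knockout array. The mean was 378 ± 51.6 on the arrays labelled knockout and 338 ± 33.1 on those labelled wild type (SD, n = 5 each). These gave a log2 difference of 0.14 ± 0.11 (limma SE, adjusted p = 0.797), and within wash runs 1, 2 and 3 it was 0.05, 0.28 and 0.03. Without both arrays labelled replicate 1 it was 0.18. Cck was the only one of the 10 genes with a positive difference in all 3 runs, and none was negative in all 3.

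Sct encodes secretin, the hormone of S cells that drives bicarbonate secretion. Its signal was 1275, 988, 788, 750.1 and 907 on the arrays labelled knockout and 885, 867, 815, 971 and 839.7 on those labelled wild type. Knockout replicate 1 stood highest, and the wild type arrays lay close together (SD 59.6, against 209 on the knockout arrays, n = 5 each). Secretin differed by 0.08 ± 0.13 on the log2 scale (limma SE, adjusted p = 0.922), and -0.03 without knockout replicate 1. Ghrl, which encodes the appetite-raising hormone ghrelin, read 80.9 to 191 on the arrays labelled knockout and 104 to 168 on those labelled wild type. Its log2 difference was -0.07 ± 0.16 (limma SE, adjusted p = 0.940), 0.04 without knockout replicate 5 and -0.105 without both arrays labelled replicate 1.

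Among the lower gut hormones, Nts had the largest difference of the 10 genes, lower on the arrays labelled knockout, and it did not pass. Nts encodes neurotensin, made in N cells and released by dietary fat. It read 1609, 807, 694, 1457 and 992 on the arrays labelled knockout and 1227, 983, 1497, 1575 and 1378 on those labelled wild type. Knockout replicates 2 and 3 were below every wild type array, and knockout replicate 1 was the highest of all 10. The log2 difference was -0.30 ± 0.21 (limma SE, adjusted p = 0.742; exact two-sided permutation p = 0.270), a 0.81-fold level with a 95% interval of 0.59-fold to 1.11-fold.

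The Nts difference was larger without the arrays on which Klf9 was unlike the rest of its labelled group. Without both arrays labelled replicate 1 it was -0.47 ± 0.21 (limma SE, unadjusted p = 0.0422, adjusted p = 0.477), and 10.2% of all probe sets had an unadjusted p under 0.05 in that fit. Without knockout replicate 1 alone it was -0.45, and without knockout replicate 3 it was -0.16. Within wash runs 1, 2 and 3 it was 0.05, -0.58 and -0.45.

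Pyy encodes peptide YY of L cells, which slows gut transit and curbs appetite. Its signal was 1082, 628, 555, 707 and 839 on the arrays labelled knockout and 535, 504, 1190.3, 935 and 791 on those labelled wild type. The group means were close, at 762 ± 207 on the arrays labelled knockout and 791 ± 286 on those labelled wild type (SD, n = 5 each), and all 5 knockout arrays lay within the wild type range. For Pyy the log2 difference was -0.02 ± 0.22 (limma SE, adjusted p = 0.989), with a 95% interval of 0.71-fold to 1.38-fold. Without both arrays labelled replicate 1 it was -0.26 ± 0.21 (limma SE, adjusted p = 0.709), the next largest of the 10 in that fit after Nts. Within wash runs 1, 2 and 3 it was 0.62, -0.71 and 0.08. Wild type replicates 1 and 2, the lowest of their group for Pyy, were the wild type arrays of run 1.

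Gcg encodes proglucagon, the precursor of glucagon-like peptides in L cells. Its signal was 528, 540.5, 859.7, 797 and 903 on the arrays labelled knockout and 632, 745, 735, 801 and 684 on those labelled wild type. Knockout replicates 1 and 2 were below, and replicates 3 and 5 above, every wild type array. The SD was 179 on the knockout arrays and 63.9 on the wild type arrays (n = 5 each), and the log2 difference was -0.02 ± 0.15 (limma SE, adjusted p = 0.988).

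A marker of the ileum, Fabp6, varied widely over the same arrays. Fabp6, the ileal bile acid binding protein, read 1669, 176, 1159.7, 234 and 1290.1 on the arrays labelled knockout and 277, 181, 10006, 1054 and 517 on those labelled wild type. Wild type replicate 3, with the highest Fabp6, also had the highest Pyy and Chga and the lowest Gip, Cck, Sst and Pcsk1. Knockout replicate 1, second in Fabp6 and in Pyy, had the highest Gip, Sct, Nts and Sst and the lowest Gcg and Chga. Gcg, like Pyy a gene of L cells, was at 735 on wild type replicate 3, within the 632 to 801 of the wild type arrays. Of the 5 ileal markers on the array 3 were above the filter, with Slc10a2 and Fgf15 below it. Slc51a varied less than Fabp6, at 4116 to 6198 on the knockout arrays and 4225 to 6126 on the wild type arrays. Mep1a read 1503 to 6045 on the knockout arrays and 2335 to 4332 on the wild type arrays. The summed signal of the 5 ran from 6956 to 13719 on the knockout arrays and from 7523 to 19092 on the wild type arrays. The part of the sampled gut position in the hormone values was not tested. Without wild type replicate 3 the Pyy difference was 0.14 ± 0.21, the Gip difference 0.11 and the Sst difference -0.01.

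Sst encodes somatostatin, the peptide of D cells that inhibits the release of other gut hormones. It read 763, 657, 524, 637 and 436 on the arrays labelled knockout and 583, 692, 306, 529 and 600.0 on those labelled wild type. Wild type replicate 3 was the lowest and knockout replicate 1 the highest, and 4 of 5 knockout arrays lay within the wild type range. For Sst the log2 difference was 0.16 ± 0.19 (limma SE, adjusted p = 0.870), and within wash runs 1, 2 and 3 it was 0.14, 0.47 and -0.42. It was 0.11 without both arrays labelled replicate 1. Sst is also made by enteric neurons. Neuron and glia markers on the array, 17 genes of which 9 were above the filter, had summed signals of 1937 to 3261 on the knockout arrays and 2248 to 3118 on the wild type arrays, and the share of neurons in the Sst signal was not tested.

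Chga, which encodes the granule protein chromogranin A found in most enteroendocrine cells, was the steadiest of the 10 genes. It read 707, 810.1, 871, 862 and 864 on the arrays labelled knockout and 755, 782, 948, 900.2 and 708 on those labelled wild type. The highest array was 1.34 times the lowest, where Gip spanned 2.69 times. The means were 823 ± 69.0 on the arrays labelled knockout and 819 ± 101 on those labelled wild type (SD, n = 5 each), and the log2 difference was 0.01 ± 0.11 (limma SE, adjusted p = 0.988) with a 95% interval of 0.86-fold to 1.18-fold.

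Pcsk1 encodes prohormone convertase 1/3, which cuts proglucagon, pro-CCK and other precursors at paired basic residues. It read 175, 195, 192, 232 and 164 on the arrays labelled knockout and 139, 168, 126, 155 and 231 on those labelled wild type. All 5 knockout arrays lay above the wild type mean, while wild type replicate 5 (231) was close to the highest knockout array (232). For Pcsk1 the log2 difference was 0.19 ± 0.14 (limma SE, adjusted p = 0.757; exact two-sided permutation p = 0.190). Without wild type replicate 5 it was 0.29 ± 0.12 (limma SE, unadjusted p = 0.0357, adjusted p = 0.756), in a fit where 6.35% of all probe sets had an unadjusted p under 0.05. That is the array nearest the top of the knockout range, and leaving it out gave the largest Pcsk1 difference of the alternatives run. The difference was 0.13 without wild type replicate 3, 0.13 without knockout replicate 4, 0.17 without both arrays labelled replicate 1 and 0.019 with the module as a block. Pcsk1 was among the dimmer probe sets (178 units), where the offset of 50 shrinks a fold change.

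The genes differed among themselves in how much they varied between arrays of 1 group. The SD within groups, on the log2 scale, was 0.43 for Pyy, 0.42 for Gip, 0.40 for Nts and 0.35 for Sst, at the 94.7th, 94.4th, 93.0th and 88.9th percentiles of all tested probe sets. Ghrl (0.27), Gcg (0.26), Sct (0.21) and Pcsk1 (0.21) were in the middle and upper range, at the 50.1th to 72.7th percentiles. Cck (0.15) and Chga (0.145) lay at the 19.7th and 17.1th. The median SD was 0.26 over the members and 0.21 over all tested probe sets.

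**Figure D3:**
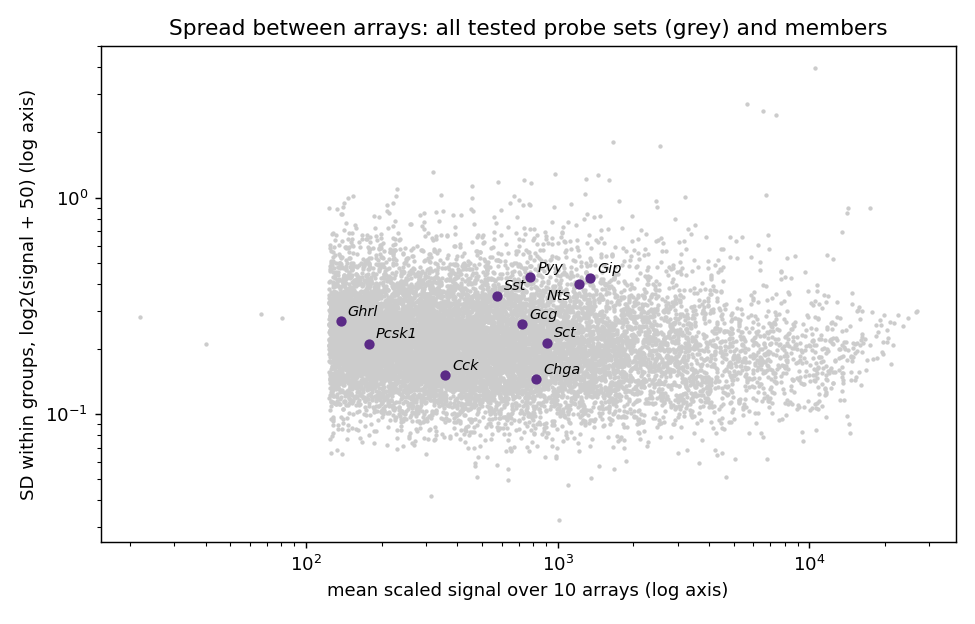
SD within groups of log2(signal + 50) against mean scaled signal (both log axes) for all 13579 tested probe sets (grey) and the 10 genes (purple). Pyy, Gip, Nts and Sst lie in the upper part of the cloud at SDs of 0.35 to 0.43, and Cck and Chga in the lower part at 0.15 and 0.145.

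No array was highest, or lowest, for all 10 genes. Knockout replicate 1 was the highest array for 4 genes (Gip, Sct, Nts and Sst) and the lowest for 2 (Gcg and Chga). Wild type replicate 3 was the highest for 2 (Pyy and Chga) and the lowest for 4 (Cck, Gip, Sst and Pcsk1). Knockout replicate 4 was the highest for Cck, Ghrl and Pcsk1 and the lowest for Sct. Wild type replicate 4 was among the 3 highest arrays for 7 of the 10 genes without being the highest for any.

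**Figure D4:**
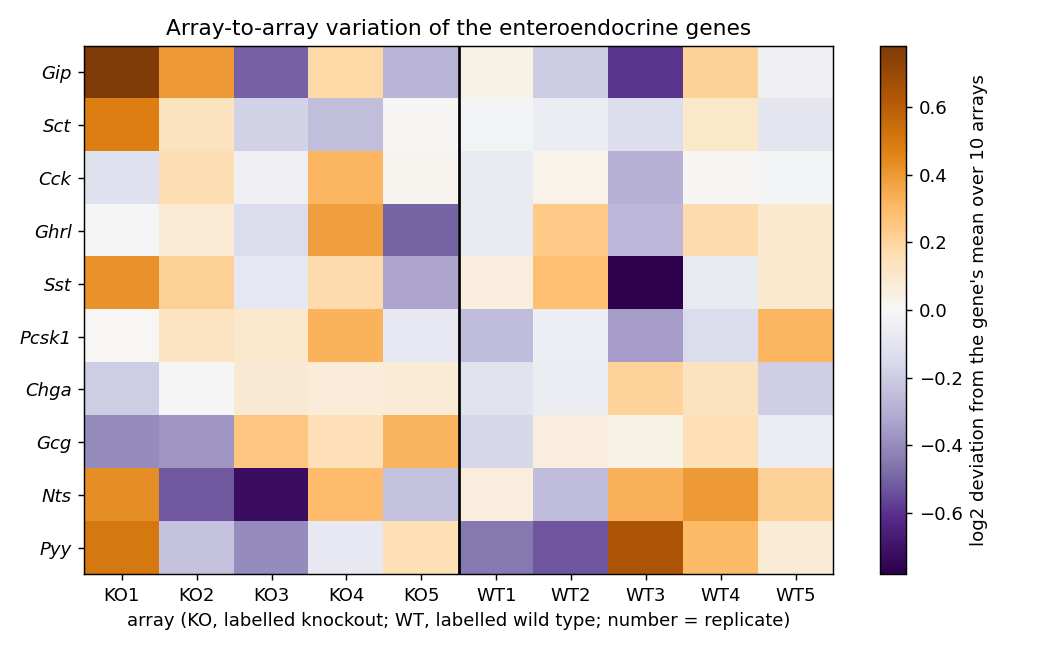
Log2 deviation of each gene (rows) from its own mean over the 10 arrays (columns; KO, labelled knockout; WT, labelled wild type; number, replicate). Orange is above and purple below the mean; KO1 is high for Gip, Sct, Sst, Nts and Pyy and low for Gcg, and WT3 is low for Gip and Sst and high for Pyy.

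Pairs of the genes were compared over the 10 arrays, 45 pairs in all, of which 21 correlated positively and 24 negatively (median r = -0.05). No pair passed after Benjamini-Hochberg adjustment over the 45, and 9 had an unadjusted permutation p under 0.05 (Pearson, 100000 resamples). The share of pairs of other probe sets with such a p was not computed, so the 9 are described without a background. Gip and Sct had r = 0.75 (permutation p = 0.0108, adjusted 0.188) and rho = 0.65 (permutation p = 0.0490, adjusted 0.368). Without the 2 arrays farthest from the Gip median r was 0.45, over 8 arrays that span less of the Gip range, and the relation no longer had an unadjusted p under 0.05. Nts and Pyy had r = 0.69 (permutation p = 0.0308, adjusted 0.201) and rho = 0.76 (permutation p = 0.0145, adjusted 0.327), with r = 0.65 without the 2 arrays farthest from the Nts median.

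Opposed pairs were also seen among these 9. Sst and Chga had r = -0.74 (permutation p = 0.0109, adjusted 0.188) and rho = -0.77 (permutation p = 0.0131, adjusted 0.327), with r = -0.60 without the 2 arrays farthest from the Sst median. Gip and Gcg had r = -0.71 (permutation p = 0.0215, adjusted 0.194) and rho = -0.56 (permutation p = 0.0967, adjusted 0.435), with r = -0.66 without the 2 arrays farthest from the Gip median. Gcg was lowest on the 2 arrays labelled knockout with the highest Gip, whereas those labelled wild type, at 632 to 801 for Gcg, showed no such order; the difference between the labels was not tested. Cck and Pcsk1 had r = 0.72 (permutation p = 0.0167, adjusted 0.188) and rho = 0.58 (permutation p = 0.0879, adjusted 0.435), and r was 0.26 without the 2 arrays farthest from the Cck median. With group means taken out these 5 pairs had r of 0.74, 0.74, -0.77, -0.73 and 0.65. The remaining pairs of the 9 were Gip with Sst (r = 0.745), Sct with Gcg (-0.66), Ghrl with Sst (0.66) and Gcg with Chga (0.64). Among the lower gut hormones, Gcg had r = -0.07 with Pyy and -0.17 with Nts. No wash run held the 6 arrays needed for a value within a run.

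**Figure D5:**
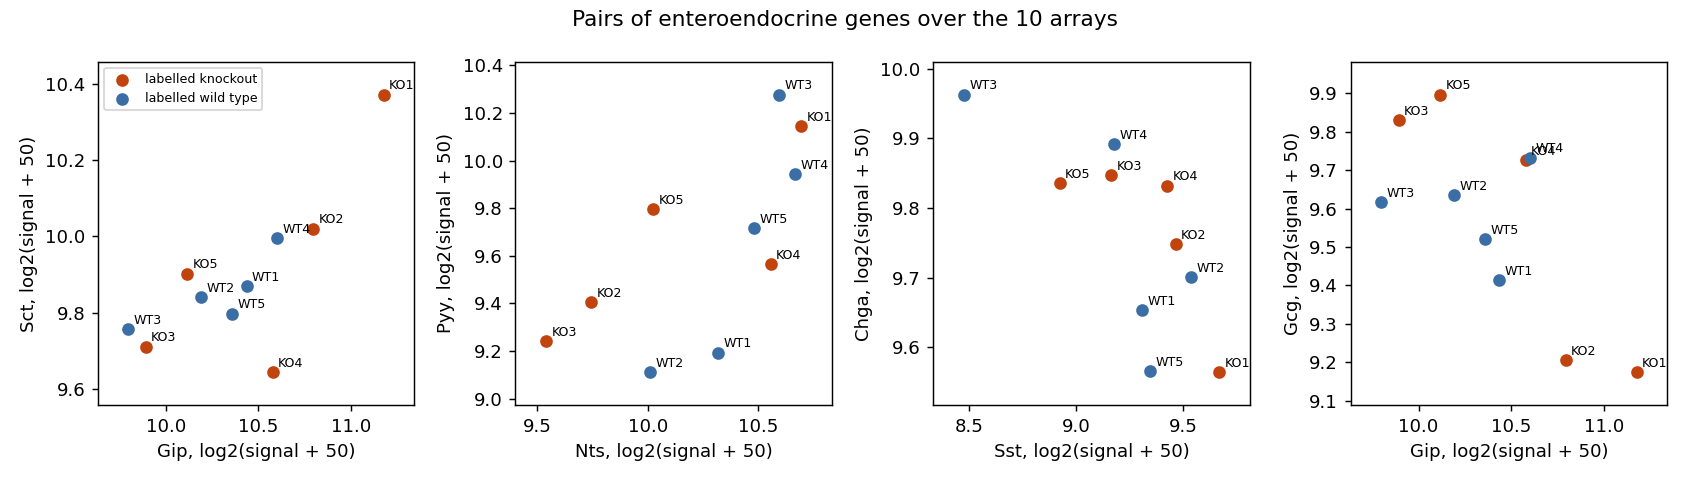
Log2(signal + 50) of 4 pairs of genes on the 10 arrays (orange, labelled knockout; blue, labelled wild type). Gip with Sct (r = 0.75) and Nts with Pyy (r = 0.69) run upward, Sst with Chga (r = -0.74) and Gip with Gcg (r = -0.71) downward, the last among the arrays labelled knockout and not among those labelled wild type; none of these passed after adjustment over 45 pairs.

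The genes whose pattern over the 10 arrays was most like a member's were looked up among 8290 tested genes by Pearson r. For Gip they were Fmo5, a flavin-containing monooxygenase (r = 0.95), Cda, cytidine deaminase (0.94), and Mast2 (0.93). For Sst they were Cyp2b10, a cytochrome P450 (0.99), Vwa1 (0.95) and Eps8l3 (0.95), and for Nts Serpina1b, an alpha-1 antitrypsin (0.92), Phf1 (0.91) and Mef2c (0.89). For Chga they were Ice2 (0.95), Uhmk1 (0.95) and Capn7 (0.94), and for Pyy Crk (0.96), Suox (0.89) and Ptch1 (0.89). The nearest gene was Alg12 for Cck (0.93), Maf1 for Sct (0.96), Arid1a for Ghrl (0.92), Celsr2 for Gcg (0.92) and Atp13a2 for Pcsk1 (0.91). None of these was another member of the 10. Each is the highest of 8290 values over 10 shared arrays, and the number of genes with r above 0.9 ran from 1 (Pyy and Pcsk1) to 20 (Gip).

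Further gut hormone, amine and granule genes, from lists chosen with earlier results of these data known, did not pass either. These lists are not particular to enteroendocrine cells: Vip, for example, is also among the neuron and glia markers used here. The share of neurons in their signals was not tested. Of 23 further gut hormone and amine genes, 18 were on the array and 8 above the filter, with 6 positive and 2 negative log2 differences (median 0.08) and 0 passed in limma or had an unadjusted p under 0.05. The lowest p were those of Penk, proenkephalin (0.29 ± 0.15, limma SE), Cartpt (0.19 ± 0.13), Gal, galanin (0.21 ± 0.18), and Tac1, the substance P precursor (-0.15 ± 0.15). Of 25 granule and processing genes 21 were on the array and 8 above the filter, 6 higher and 2 lower (median 0.03), and 0 passed. Lowest in p among them were Rab3d, a small GTPase of secretory granules (0.15 ± 0.11), Vamp2, of granule fusion (0.08 ± 0.10), and Scg2, secretogranin II (0.14 ± 0.18).

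Transcription factors of the lineage were split. Of 26 listed, 19 were on the array and 9 above the filter, 4 higher and 5 lower (median -0.02), and 0 passed in limma or had an unadjusted p under 0.05. Neurog3, required for the enteroendocrine fate, read 173 ± 19.5 on the arrays labelled knockout and 150.3 ± 26.4 on those labelled wild type (SD, n = 5 each), a log2 difference of 0.16 ± 0.12 (limma SE, adjusted p = 0.763). Foxa1, which acts with Foxa2 in this lineage, differed by -0.24 ± 0.15 (adjusted p = 0.721), and Egr1 and Sox4 by 0.12 ± 0.13 and -0.10 ± 0.12. Pax4, Isl1, Nkx2-2 and Insm1 were below the filter and were not tested.

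Sensors and receptors gave no call. Of 25 nutrient sensor and excitability genes 14 were on the array and 7 above the filter, 2 higher and 5 lower (median -0.03), with Ffar2, a short-chain fatty acid receptor, at -0.14 ± 0.11 (limma SE), the peptide transporter Slc15a1 at -0.23 ± 0.18 and the glucose transporter Slc5a1 at -0.14 ± 0.13. Slc15a1 and Slc5a1 are mostly enterocyte transcripts. Of 20 receptors for the hormones 16 were on the array and 3 above the filter, all lower and none called: the somatostatin receptor Sstr2 (-0.13 ± 0.12), the neurotensin-binding sortilin Sort1 (-0.07 ± 0.11) and Npy4r, of the peptide YY receptor family (-0.03 ± 0.11).

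Marker signals of other cell types also varied between the arrays. Smooth muscle markers were higher for 10 of 10 genes (median log2 difference 0.31), with 0 called and 4 at an unadjusted p under 0.05 in limma. Over all probe sets 48.6% were higher and 7.89% had an unadjusted p under 0.05. The summed signal of the muscle markers ran from 29943 to 46586 on the arrays labelled knockout and from 22316 to 37623 on those labelled wild type. The highest knockout sum and the lowest wild type sum were on the 2 arrays labelled replicate 1, whose labels are in doubt. Knockout replicates 2 to 5 summed to 29943, 41198, 43815 and 33894. Wild type replicates 2 to 5 summed to 35473, 36877, 37623 and 28521, so that without replicate 1 the ranges overlapped more. Epithelial markers summed to 85027 to 102873 on the knockout arrays and 83351 to 111905 on the wild type arrays. Of these, 4 of 10 were higher and 6 lower, 1 with an unadjusted p under 0.05. Enterocyte markers had 2 of 9 higher and 7 lower, also 1 with an unadjusted p under 0.05. Goblet, Paneth and tuft cell markers, the other secretory cells of the epithelium, had 3 of 10 higher and 7 lower (median -0.12), 0 with an unadjusted p under 0.05. None of these lists was called for any gene, and their part in the hormone values was not tested.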

How the data were processed

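The 10 Affymetrix mouse 430A arrays of jejunal RNA were grouped by sample title, 5 as knockout and 5 as wild type. Biotin-labelled cRNA was hybridised, per the labels' protocols, and images were quantified by the authors with MAS 5.0, per the design text. The authors deposited signal intensities on a linear scale, whose 2% trimmed mean is near 500 on every array, as read from the values. Detection calls were not analysed here.

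Each array was set to a 2% trimmed mean of 500 and log2(signal + 50) was taken, so that fold changes are on the scale of signal plus 50 and understate those of dim genes. The 64 control probe sets were left out, and probe sets with a mean above the 40th percentile (123.5) were kept (13575), with all Klf9 and member probe sets always kept (13579 in all). Symbols came from the platform annotation (20380 probe sets with 1 symbol, 691 with several, 1555 with none), and 20351 were updated by gene ID through a RefSeq table. The brightest tested probe set stood for a gene.

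Groups were compared with limma 3.58.1 (R 4.3.3; lmFit, eBayes with trend), with two-sided p-values adjusted by Benjamini-Hochberg across the probe sets tested, and called at an adjusted p under 0.05. The fit was tested on simulated data. Exact permutation over the 252 splits of single values cannot go below p = 0.00794. Fluidics modules were read from instrument files, and wash runs were inferred from gaps of over 30 minutes between recorded hybridization times. If arrays were not from separate animals, p-values measure only the spread between these arrays, which may be technical. Members and lists were chosen with earlier results of these data known. The genes named were all members, the brightest Klf9 probe set, 2 to 4 genes of lowest p per list and, for each member, 1 or 3 of the 3 genes most similar in pattern; other markers and arrays were singled out after their values were seen. Same-numbered arrays did not deviate together in every pair, so replicate numbers were not treated as pairs. Alternatives were other offsets, filters, normalizations, eBayes settings, array weights, blocks and arrays left out.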

Additional observations from a re-analysis of the deposited data

Results flagged for a closer look

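Gene by gene within each group of 5 arrays, 54 sets of linear signals were checked for a single array far from the others. The sets were those of the 10 genes and of further marker genes, in both groups. Such a check picks out about 1 set in 20 by chance when sets are chosen without regard to their values. Marker genes were singled out after their values were seen, so that rate does not hold for them. The check picked out 2 sets, both of marker genes, and none of the 10 enteroendocrine genes. Fabp6 on wild type replicate 3, at 10006, stood apart from the other wild type arrays, with a gap to the next of 0.911 of the group's range. Neurog3 on wild type replicate 4, at 196, stood apart from the other wild type arrays, the next of which was at 145, with a gap of 0.767 of the range.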

How the results depend on the processing

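With 0 of the 10 genes called, no alternative added a call among them. Over all probe sets 3 passed with array weights, 9 without both arrays labelled replicate 1, and 0 to 5 with single arrays left out (5 without knockout replicate 1, 3 without knockout replicate 5 and 1 without wild type replicate 1), where 0 passed otherwise. Replicate numbers as a block gave 0 calls, 1232 unadjusted p under 0.05 and a median member difference of 0.04; same-numbered arrays correlated at -0.12 to 0.28, and 3 of 5 knockout arrays correlated best with their own number. With the module as a block, where 1 knockout array informs a value, the differences turned for Cck (-0.0040), Gip (-0.28), Sct (-0.016), Gcg (0.21), Pyy (0.27) and Sst (-0.43), and Ghrl was at -0.71 (unadjusted p = 0.0175, adjusted p = 0.999). Chga turned with quantile normalization (-0.0070) and cyclic loess (-0.010), and Sct and Gcg without both arrays labelled replicate 1 (-0.028 and 0.038). Single arrays left out gave ranges of 0.07 to 0.18 for Cck, 0.07 to 0.39 for Gip, -0.033 to 0.15 for Sct, -0.18 to 0.044 for Ghrl, -0.10 to 0.081 for Gcg, -0.45 to -0.16 for Nts, -0.15 to 0.14 for Pyy, -0.012 to 0.26 for Sst, -0.037 to 0.063 for Chga, 0.13 to 0.29 for Pcsk1 and 0.03 to 0.11 for the median. Nts and Pcsk1 kept their sign under all 25 alternatives; of 250 values over the 10 genes, 26 changed sign, and the cause was not tested. Each gene has 1 probe set, so a mean over probe sets changes nothing, and no pair of genes passed with group means taken out or without the 2 farthest arrays. The number of arrays limits the precision: the 95% intervals given with the differences are what 5 against 5 arrays allow.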
